A study of Mus musculus with 6 samples.

Results

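The CDK inhibitors and D cyclins were 10 genes on the array, found as the non-control probes whose RefSeq accession belongs to Cdkn1a, Cdkn1b, Cdkn1c, Cdkn2a, Cdkn2b, Cdkn2c, Cdkn2d, Ccnd1, Ccnd2 or Ccnd3. They had 14 probes, of 39429 in all, and the named probes of the array covered 20659 genes. RNA came from lenses of 3-month-old mice in 2 groups, the βB2-crystallin W151C knock-in and the wild type, with 3 arrays each. The labels number them 1, 2 and 4 in the knock-in and 1, 2 and 3 in the wild type, and these numbers name the arrays here. In the knock-in mice a base change made with CRISPR/Cas9 in codon 151 of Crybb2 replaces tryptophan with cysteine in βB2-crystallin, a structural protein of the lens. No other treatment is named in the labels. Strain, sex, zygosity and any pooling of lenses or animals are not stated in the labels, and the replicate spread behind each p-value may therefore be partly technical.

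Cells enter the division cycle when D cyclins activate the kinases CDK4 and CDK6, which phosphorylate the retinoblastoma protein and free E2F factors to switch on replication genes. The Cip/Kip inhibitors p21 (Cdkn1a), p27 (Cdkn1b) and p57 (Cdkn1c) bind cyclin-CDK complexes broadly, while the INK4 inhibitors p16 (one product of Cdkn2a), p15 (Cdkn2b), p18 (Cdkn2c) and p19 (Cdkn2d) bind CDK4 and CDK6. In the mouse lens, dividing epithelial cells leave the cycle at the equator and become fibre cells, a step for which p27 and p57 are the known inhibitors. p21 is a textbook target of the tumour suppressor p53.

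Levels are given as log2 intensities above or below the 75th percentile of the same array, so 0 is that percentile and a difference of 1 is 2-fold. The 75th percentile itself was 167 to 201 intensity units on the knock-in arrays and 120 to 698 on the wild type arrays, the highest being wild type array 3. Slides were inferred from the scan times in the headers, and arrays with the same scan time were counted as sharing a slide. By this rule the knock-in arrays shared slide 1 and wild type arrays 1 and 2 shared slide 2. Wild type array 3 was alone on slide 3, scanned on another day. Genotypes never shared an inferred slide, and effects of slide and genotype cannot be told apart. Fitting slide as a random block allows for likeness within a slide but cannot separate slide from genotype. Lens identity was checked on 14 fibre markers and 13 epithelial markers, of which all 14 and 11 to 13 were well above background on each array. Of the defining markers of other cells, Myh11 (smooth muscle) and Krt12 (corneal epithelium) were not well above background on any array. Bulk lens RNA cannot tell fewer cells of a type from less RNA per cell.

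Promoter sequences were available for 7 of the 10 genes in RefSeq's table for GRCm38.p6, 250 bases before each of 11 starts. None was available for Cdkn1c, Ccnd1 or Ccnd2. Both sequences of Cdkn1a, the upstream one of 2 for Cdkn2c, and that of Cdkn1b are printed 5′ to 3′ on the gene's strand. They set the called inhibitors Cdkn1a and Cdkn2c beside one that did not pass. Capitals mark matches to the motifs searched: the p53 half-site and the p53 full site in the first sequence, and the GC box GGGCGG in the other three.
Cdkn1a, first start, chr17:29090729-29090978, plus strand: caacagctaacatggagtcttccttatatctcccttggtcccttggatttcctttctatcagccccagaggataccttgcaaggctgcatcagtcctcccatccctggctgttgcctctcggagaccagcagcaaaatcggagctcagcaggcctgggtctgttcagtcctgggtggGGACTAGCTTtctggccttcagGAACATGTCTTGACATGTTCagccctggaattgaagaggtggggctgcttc
Cdkn1a, second start, chr17:29093519-29093768, plus strand: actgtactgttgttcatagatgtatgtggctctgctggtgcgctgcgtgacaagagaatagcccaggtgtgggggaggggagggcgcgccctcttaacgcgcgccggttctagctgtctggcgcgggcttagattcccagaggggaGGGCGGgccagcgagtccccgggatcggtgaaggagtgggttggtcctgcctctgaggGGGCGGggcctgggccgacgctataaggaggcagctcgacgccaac
Cdkn2c, chr4:109666757-109667006, minus strand: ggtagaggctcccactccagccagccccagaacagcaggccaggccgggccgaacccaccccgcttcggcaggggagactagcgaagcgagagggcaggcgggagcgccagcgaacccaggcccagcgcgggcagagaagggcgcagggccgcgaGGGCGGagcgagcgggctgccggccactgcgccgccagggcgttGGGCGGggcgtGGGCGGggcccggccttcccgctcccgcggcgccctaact
Cdkn1b, chr6:134920151-134920400, plus strand: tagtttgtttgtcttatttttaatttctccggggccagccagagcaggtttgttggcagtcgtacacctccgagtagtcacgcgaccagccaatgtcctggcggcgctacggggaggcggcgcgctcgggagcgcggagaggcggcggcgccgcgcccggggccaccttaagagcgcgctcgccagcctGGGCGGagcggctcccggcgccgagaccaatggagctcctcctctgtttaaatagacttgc

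The first Cdkn1a start had 1 match to the p53 full site, 2 adjoining half-sites with at most 1 mismatch, beginning 51 bases before the start. Such a match was found before 25 of 32851 starts in the table (0.0761%), and before none of the other 10 member starts. A single half-site without mismatch stood before 7.13% of starts, and among the members also before Cdkn2d. The second Cdkn1a start, 2790 bases downstream, had 2 GC boxes, the printed Cdkn2c start had 3 and its other start 0, and Cdkn1b had 1, against 32.7% of all starts with at least 1. Motifs were searched on both strands. The CRE, spelled TGACGTCA, matched once before Cdkn2b, where 1.55% of all starts had a match. The E2F motif, spelled TTTNGCGC, matched once before Cdkn2a, against 1.13% of all starts. The TATA box, spelled TATAAA, stood before none of the 11 member starts and before 12.4% of all starts. The AP-1 motif, spelled TGANTCA, also stood before none of them, against 6.75% of all starts. The same held for the C/EBP-ATF element, spelled TGATGNAA, against 3.45%. The p53 motif was added after the Cdkn1a sequence had been seen, and these matches are letters in a window, not shown binding sites.

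Of the inhibitors and cyclins, Cdkn1a was much higher in knock-in than in wild type lenses, Cdkn1c and Cdkn2c were lower, and Ccnd2 was higher. Cdkn1b, the inhibitor that shares the fibre role with Cdkn1c, did not pass the test, nor did Cdkn2a, Cdkn2b, Cdkn2d, Ccnd1 or Ccnd3. By limma with Benjamini-Hochberg adjustment over 12783 genes, 2 of the 10 were higher and 2 lower at an adjusted p of 0.05, against 25.9% of all genes called (1697 higher, 1613 lower; 1143 and 1654 when arrays were centred on their median). All 10 genes passed the filter on dim probes, Cdkn1a through the knock-in arrays alone. The groups did not overlap for 5 of the 10 (the 4 called genes and Ccnd3), where 45.9% of all genes had groups apart (22.7% higher, 23.1% lower). The median difference of the 10 was 0.23, beside -0.04 over all genes.

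**Figure D1:**
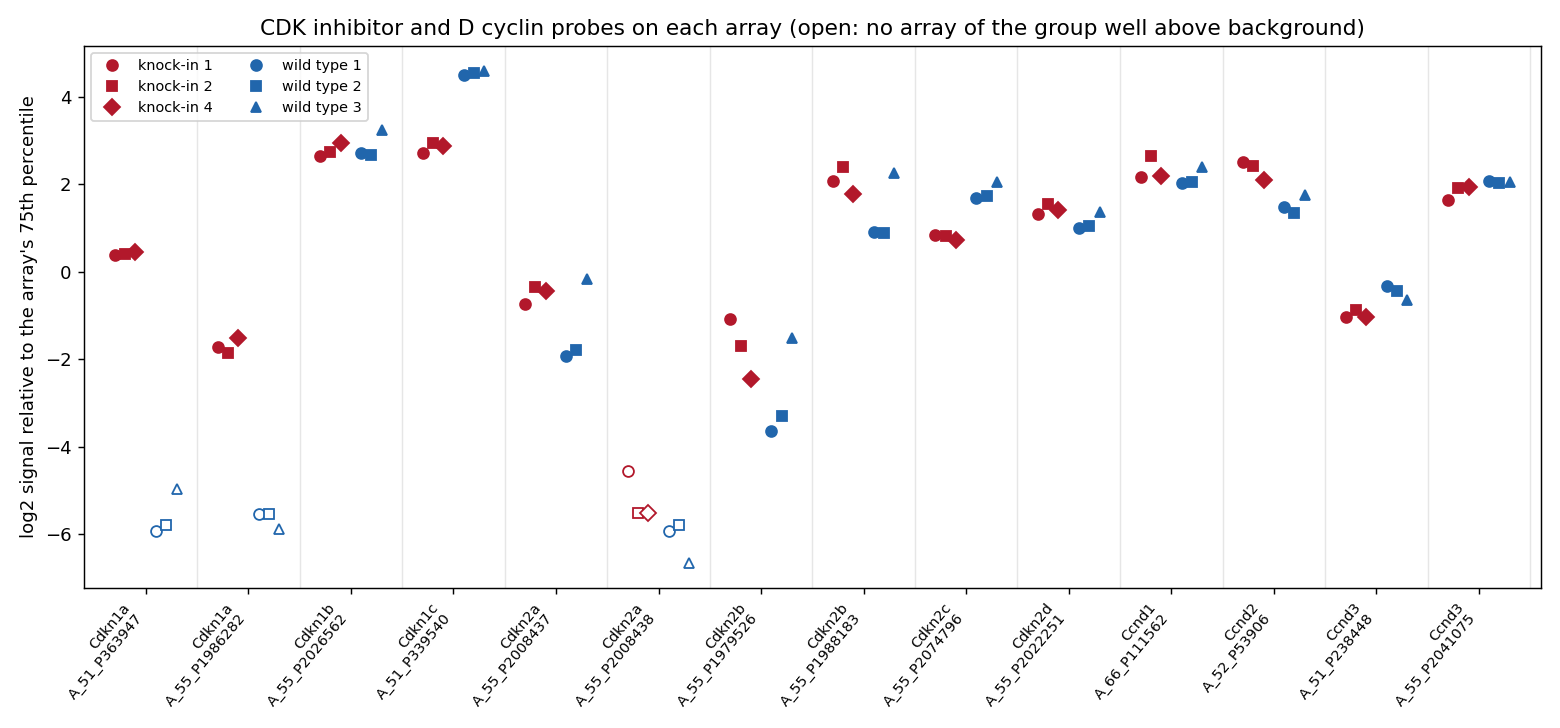
Log2 signal relative to each array's 75th percentile (y axis) of the 14 probes (x axis), knock-in arrays in red left of wild type arrays in blue; open symbols mark a group with no array well above background. Both Cdkn1a probes are far higher on the 3 knock-in arrays, Cdkn1c is lower on them, and wild type array 3 lies near the knock-in arrays for Cdkn2a and Cdkn2b.

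Cdkn1a, encoding p21, was measured by 2 probes that the files assign to the transcripts NM_007669 and NM_001111099. The first read 0.38, 0.39 and 0.45 in knock-in lenses 1, 2 and 4, against -5.92, -5.80 and -4.96 in wild type lenses 1, 2 and 3. In intensity units before scaling this was 217, 263 and 258 in knock-in and 2.35, 2.15 and 22.4 in wild type lenses. Every knock-in array was well above background and no wild type array was, so the groups lay far apart and the wild type values carry only a bound. The bound took, on each wild type array, the higher of the probe's own signal and the lowest signal of any probe well above background. By it the knock-in level of Cdkn1a was at least 22-fold higher on the scaled signals. The measured means were 0.41 ± 0.04 in knock-in and -5.56 ± 0.52 in wild type lenses (SD, n = 3 each). Limma tested these measured values, whose difference was 5.97 (adjusted p = 5.1e-05). That p does not belong to the bound and rests on wild type values not well above background.

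This first Cdkn1a probe sits on the array 10 times, which shows its technical spread within an array. The SD over its spots was 0.080 to 0.11 on the knock-in arrays and 0.11 to 0.30 on the wild type arrays. All 10 spots were well above background on each knock-in array and none was on any wild type array. The second Cdkn1a probe read -1.73, -1.85 and -1.51 in knock-in, against -5.55, -5.53 and -5.88 in wild type lenses. It too was well above background on the knock-in arrays alone and was at least 5.10-fold higher by the same kind of bound. Its measured difference was 3.95 (limma adjusted p over all probes = 8.0e-05, with 23.6% of 21073 probes called). Both probes separated the groups, as did 44.6% of all probes, and their bounds differ in size. The Cdkn1a call held in each setting that kept the gene, leaving out any 1 array included, and slide taken as a random block left it at adjusted p = 0.000538. Normexp background correction was run on the spot medians and added 50 intensity units to every signal, which lifts dim signals most on the log2 scale. With it the difference was 2.46 (limma adjusted p = 0.00930), and that of the second probe was 1.04 and did not pass (adjusted p = 0.159). Both are smaller than the bounds above, which are 4.46 and 2.35 on the log2 scale. Those bounds hold only for the background-subtracted signal used here, and the normexp values, with 50 units added, cannot test them.

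Cdkn1c, encoding p57, read 2.70, 2.93 and 2.87 in knock-in, against 4.50, 4.54 and 4.59 in wild type lenses. All 6 values were well above background, and every knock-in value lay below every wild type value. The means were 2.83 ± 0.12 in knock-in and 4.55 ± 0.05 in wild type lenses (SD, n = 3 each), and Cdkn1c fell by 1.71 on the log2 scale (SE 0.15, limma adjusted p = 0.000536). Of the members Cdkn1c was little moved by wild type array 3, which lay 0.07 above the mean of the other two wild type arrays. The fall passed under every alternative, from -1.81 to -1.57, and with slide fitted as a random block (adjusted p = 0.0128).

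Cdkn1b, encoding p27, read 2.65, 2.73 and 2.94 in knock-in, against 2.70, 2.67 and 3.24 in wild type lenses. The groups overlapped, with the highest value on wild type array 3. The difference was -0.10 (95% interval -0.59 to 0.39, limma adjusted p = 0.759), so the interval covers changes of either sign. Without wild type array 3 the difference was 0.09 (adjusted p = 0.649).

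The change of Cdkn1a was set against those of the fibre inhibitors directly. On each array the log2 signal of Cdkn1a minus that of Cdkn1c was -2.33, -2.54 and -2.42 in knock-in, against -10.42, -10.34 and -9.55 in wild type lenses. The scaling of an array cancels in this value, whose change between genotypes was 7.68, or at least 6.17 with the wild type Cdkn1a signal held at its floor. Against Cdkn1b the values were -2.27, -2.34 and -2.49 in knock-in and -8.62, -8.47 and -8.20 in wild type lenses, a change of 6.07, or at least 4.56 with the floor. Both gave p = 0.1 in a two-sided exact permutation test over arrays, the smallest p that 3 against 3 allows. With normexp and its added 50 units these changes were 4.27 and 2.48. Both are smaller than the floor values of 6.17 and 4.56, which hold only for the background-subtracted signal.

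Among the INK4 genes, Cdkn2c, encoding p18, read 0.84, 0.82 and 0.71 in knock-in, against 1.69, 1.72 and 2.06 in wild type lenses. The groups did not overlap, and Cdkn2c fell by 1.03 (SE 0.17, limma adjusted p = 0.00580). The call ended when slide was a random block (-1.07, adjusted p = 0.0688) and with normexp (-0.75, adjusted p = 0.0687). Cdkn2d, encoding the INK4 protein p19, read 1.31, 1.56 and 1.40 in knock-in, against 0.99, 1.04 and 1.36 in wild type lenses. Wild type array 3 fell within the knock-in range, and the difference of 0.29 did not pass (95% interval -0.11 to 0.70, adjusted p = 0.246).

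Cdkn2a and Cdkn2b, neighbours on chromosome 4 and known as genes of senescent cells, turned on 1 array. Cdkn2a, whose probes the files assign to NM_009877, the transcript of the p53-stabilising product Arf, read -0.73, -0.35 and -0.44 in knock-in, against -1.94, -1.78 and -0.18 in wild type lenses. The knock-in arrays lay above wild type arrays 1 and 2 and below wild type array 3. The difference of 0.79 (95% interval -0.28 to 1.86) did not pass (limma adjusted p = 0.239), and without wild type array 3 it was 1.35 (adjusted p = 0.00207). The other Cdkn2a probe was not well above background on any array. No probe was assigned to the transcript of p16, so these values do not measure p16 by itself.

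Cdkn2b, encoding p15, had 2 probes, and on both wild type array 3 fell within the knock-in range while the other wild type arrays lay below all knock-in arrays. The brighter read 2.06, 2.39 and 1.77 in knock-in, against 0.91, 0.89 and 2.26 in wild type lenses. Its difference was 0.72 (95% interval -0.20 to 1.65, adjusted p = 0.216), and 1.17 without wild type array 3 (adjusted p = 0.00631). The dimmer read -1.09, -1.70 and -2.45 in knock-in, against -3.63, -3.29 and -1.51 in wild type lenses, with a difference of 1.06 (adjusted p = 0.228). Without wild type array 3 it was 1.71 (adjusted p = 0.0148). Wild type array 3 stood 1.68 above the mean of the other wild type arrays for Cdkn2a and 1.36 for Cdkn2b, beyond the 95th percentile of 0.70 over all genes. With the scan day as a block, which compares within the day that wild type array 3 does not share, the differences were 1.35 for Cdkn2a and 1.17 for Cdkn2b (adjusted p = 0.00186 and 0.00588), where 43.5% of all genes were called. With slide as a random block they were 0.61 and 0.58 (adjusted p = 0.615 and 0.605), where 4.85% were called.

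**Figure D2:**
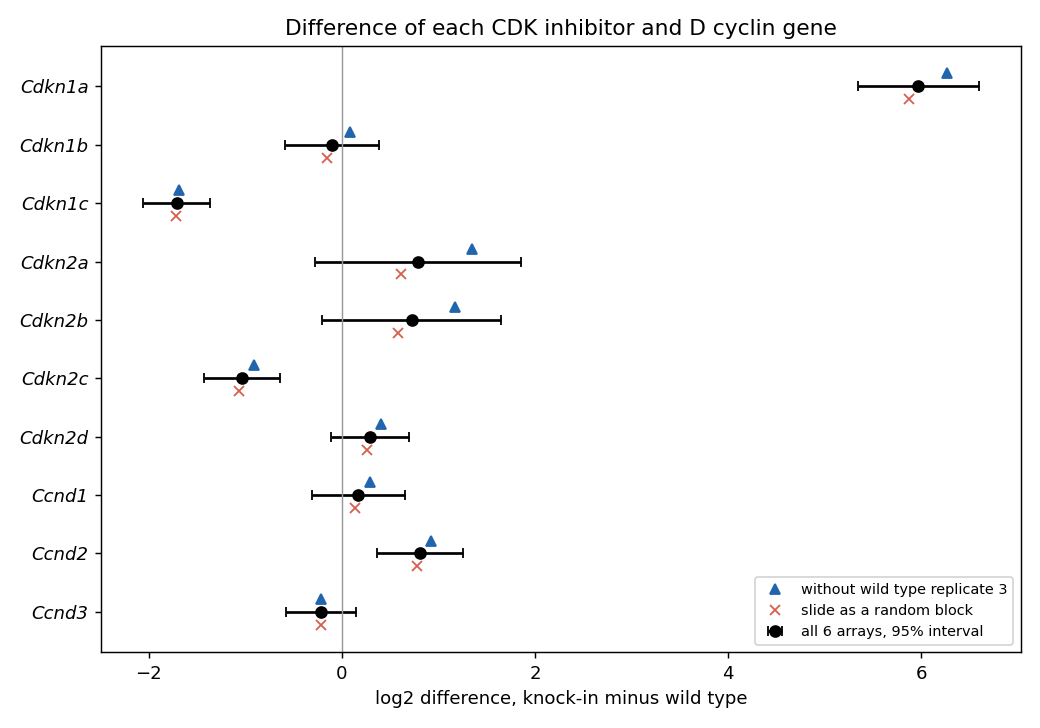
Log2 difference, knock-in minus wild type (x axis), of the 10 genes (y axis), with the 95% interval from all 6 arrays (black), the value without wild type replicate 3 (triangles) and with slide as a random block (crosses). Cdkn2a moves from 0.79 to 1.35 and Cdkn2b from 0.72 to 1.17 without that array, while Cdkn1a and Cdkn1c keep clear of 0.

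Of the D cyclins, which pair with CDK4 and CDK6, Ccnd2 read 2.50, 2.41 and 2.09 in knock-in, against 1.48, 1.33 and 1.75 in wild type lenses. Every knock-in value lay above every wild type value, and Ccnd2 rose by 0.81 (SE 0.19, limma adjusted p = 0.0220). The call was lost without knock-in array 1 (adjusted p = 0.0623), without knock-in array 2 (0.0958), without wild type array 1 (0.0880) and without wild type array 2 (0.0870). It was also lost with slide fitted as a random block (adjusted p = 0.230), with median centring (0.0764), with normexp (0.0556) and without the filter on dim probes (0.0705).

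Ccnd1 read 2.15, 2.65 and 2.19 in knock-in, against 2.02, 2.06 and 2.40 in wild type lenses. The groups overlapped, and the difference was 0.17 (95% interval -0.31 to 0.65, adjusted p = 0.571). Ccnd3 had 2 probes, the brighter at 1.64, 1.91 and 1.93 in knock-in against 2.08, 2.02 and 2.04 in wild type lenses. Its difference was -0.22 (95% interval -0.58 to 0.15, adjusted p = 0.338). The dimmer Ccnd3 probe read -1.04, -0.89 and -1.04 in knock-in, against -0.33, -0.44 and -0.65 in wild type lenses. On both probes every knock-in value lay below every wild type value, and the dimmer one, at -0.51, did not pass (adjusted p over all probes = 0.0629) but passed without wild type array 3 (-0.60, adjusted p = 0.0156).

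Genes around the inhibitors and cyclins were taken from lists by role. Of the kinases and partner cyclins, 4 rose and none fell of 12 tested (median 0.38, beside -0.04 over all genes), where 25.9% of all genes were called. Pkmyt1, an inhibitory kinase of CDK1, rose by 1.02 (SE 0.17, limma adjusted p = 0.00623), Cdk1 by 0.99 (SE 0.24, adjusted p = 0.0249) and Mnat1, a subunit of the CDK-activating kinase, by 0.66 (adjusted p = 0.0340). The calls of Cdk1 and Mnat1 were lost on leaving out single arrays (adjusted p up to 0.0835 and 0.125). The count of called kinases and cyclins was 1 without wild type array 1, 2 without any other single array but wild type array 3, and 0 once slide entered as a random block, where Pkmyt1 had an adjusted p of 0.0976. Cdk4, named after its value was seen as the D cyclins' own kinase, differed by -0.16 and did not pass (adjusted p = 0.474). Cdk6 was not well above background on any array and Cdk2 on 1 wild type array, so neither was tested.

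Of the pocket proteins and E2F factors, 2 rose and none fell of 10 tested (median 0.22), a share no higher than the 25.9% called over all genes. These were E2f3 at 0.63 and E2f2 at 0.67, transcription factors that the retinoblastoma protein restrains, with adjusted p = 0.0335 and 0.0447, lost on leaving out single arrays (up to 0.135 and 0.145). None of the 10 passed with median centring, with the slide block, or without knock-in array 2 or 4 or wild type array 1 or 2, 1 passed without knock-in array 1, and 4 passed without wild type array 3. Of the genes that turn over inhibitors and cyclins, 5 rose and 1 fell of 16 tested (median 0.28). Over all genes 13.3% were higher and 12.6% lower. Cks2, which encodes a small CDK-binding protein, rose by 1.48 (SE 0.21, adjusted p = 0.00329), Cul4a, a ubiquitin ligase scaffold, by 0.90 (SE 0.16, adjusted p = 0.00779) and Fbxo4, an F-box protein, by 0.67 (SE 0.15, adjusted p = 0.0180). Fbxo31, an F-box protein that targets cyclin D1, fell by 1.80 (SE 0.50, adjusted p = 0.0389), a call lost on leaving out single arrays (adjusted p up to 0.130), as was that of Fbxo4 (up to 0.0900). With the slide block none of the 16 was called, Cks2 and Cul4a included (adjusted p = 0.0637 and 0.124). Without knock-in array 2, wild type array 1 or wild type array 2, 2 rose and none fell, and with median centring 2 rose and 1 fell.

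Of the replication and mitosis genes, 5 rose and 1 fell of 16 tested (median 0.36), where 13.3% of all genes were higher and 12.6% lower. Mki67, the gene of the proliferation antigen Ki-67, rose by 1.71 (SE 0.22, limma adjusted p = 0.00233), Rrm2, a subunit of ribonucleotide reductase, by 1.17 (SE 0.19, adjusted p = 0.00646) and Pcna, the sliding clamp of replication, by 0.59 (SE 0.14, adjusted p = 0.0239). Aurka, a mitotic kinase, fell by 0.68 (adjusted p = 0.0481). The calls of Pcna and Aurka were lost on leaving out single arrays (adjusted p up to 0.118 and 0.179). Mki67 read 0.18, -0.02 and -0.09 in knock-in, against -1.43, -1.53 and -2.10 in wild type lenses, so its groups did not overlap, and its call held with the slide block (adjusted p = 0.0246), the single one of the 16 to do so, while Rrm2 did not pass there (adjusted p = 0.0762). The list had 2 rises and no fall without knock-in array 2 or 4 or wild type array 1 or 2, and 7 rises and 4 falls without wild type array 3.

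Of 25 tested p53 targets, a list without Cdkn1a, 13 rose and 5 fell (median 0.78), where 13.3% of all genes were higher and 12.6% lower. Plk2, a kinase of the polo family, read 1.47, 1.61 and 1.72 in knock-in, against -2.47, -3.06 and -3.74 in wild type lenses, and rose by 4.70 (SE 0.31, limma adjusted p = 0.000234). Pmaip1, encoding the pro-apoptotic protein Noxa, was not well above background in wild type. By the kind of bound used for Cdkn1a it was at least 10.4-fold higher on the scaled signals. This bound too is for the background-subtracted signal alone. The limma test of Pmaip1 was on the measured difference of 4.86 (adjusted p = 0.00120), and its call was lost in 1 of 19 alternative settings. Phlda3, an inhibitor of AKT signalling, rose by 1.99 (SE 0.27, adjusted p = 0.00322). In the other direction Fas, a death receptor, fell by 0.98 (adjusted p = 0.00754), Bax, an effector of the mitochondrial death pathway, by 0.77 (adjusted p = 0.0120) and Sesn1, a stress-induced regulator of growth signalling, by 0.73 (adjusted p = 0.0171). Mdm2, the feedback ligase of p53, named after its value was seen, differed by 0.18 and did not pass (adjusted p = 0.538). Trp53 itself was well above background on no knock-in and 2 wild type arrays and was not tested.

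The number of p53 targets that passed depended on single arrays, as did the number called over all genes (1538 without knock-in array 2). For the p53 targets it was 4 higher and 1 lower without knock-in array 2. It was 4 higher and 2 lower without wild type array 1 or without wild type array 2, and 5 higher and 3 lower without knock-in array 4. With slide as a random block 3 rose (Plk2, Pmaip1 and Phlda3, adjusted p = 0.00245, 0.0159 and 0.0319) and none fell. The calls of Bax and Sesn1 were among those lost (adjusted p up to 0.0680 and 0.0761 on leaving out 1 array). Of the regulators of the inhibitor and cyclin genes, 6 rose and none fell of 30 tested (median 0.09), a smaller share than the 25.9% called over all genes. Cebpb, encoding C/EBPβ, rose by 2.58 (SE 0.25, adjusted p = 0.000821), Ddit3, encoding the stress factor CHOP, by 1.60 (SE 0.24, adjusted p = 0.00409) and Smad2, a signal transducer of TGF-β, by 0.69 (SE 0.15, adjusted p = 0.0179), the last lost on leaving out single arrays (up to 0.0958). With the slide block 1 of the 30 passed, Cebpb (adjusted p = 0.00796), and Ddit3 did not (adjusted p = 0.0770). Without knock-in array 2 the list had 2 rises, without knock-in array 4 or wild type array 1 it had 3, without wild type array 2 it had 2 rises and 1 fall, and without wild type array 3 it had 6 rises and 4 falls.

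**Figure D3:**
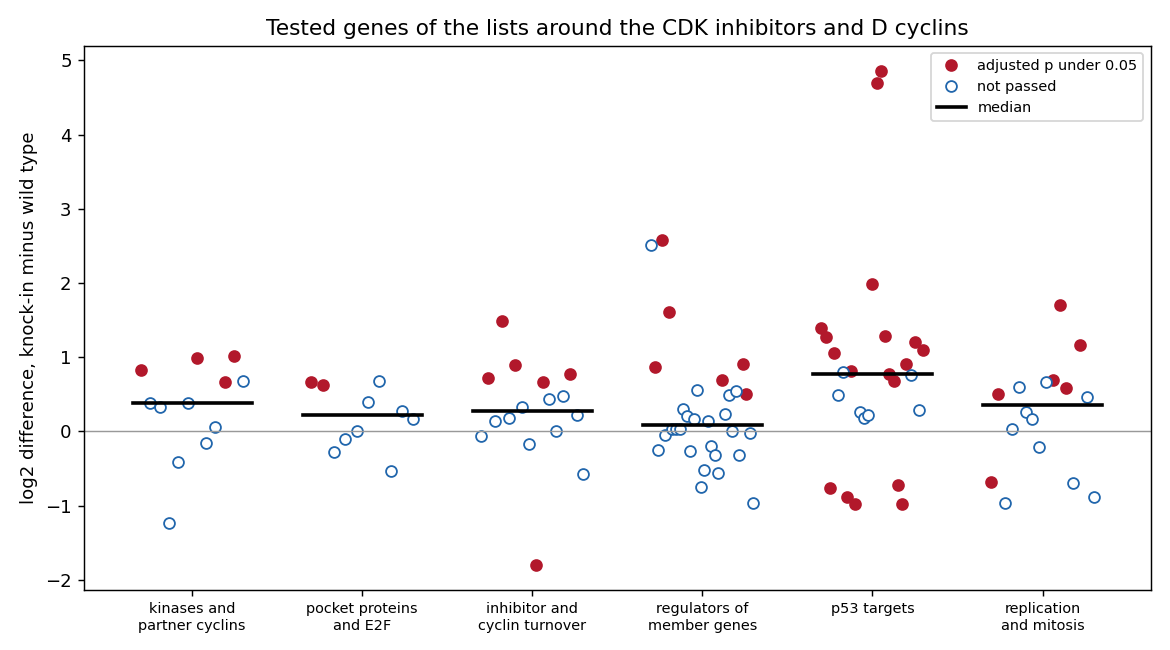
Log2 difference, knock-in minus wild type (y axis), of each tested gene in 6 lists (x axis), filled where the adjusted p was under 0.05, with the list's median as a bar. Of the p53 targets 13 filled points lie above 0 and 5 below, with Plk2 at 4.70 and Pmaip1 at 4.86 on the measured scale.

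The genes whose pattern over the 6 arrays was most like that of Cdkn1a, by Pearson's r among 12771 genes, were Cgref1, Mettl27, Usp18, Fndc4 and Mtdh, with r from 0.998 to 1.000. Among those most like Cdkn1c were Cdc42ep4, Aass, Gpr160 and Sord, with r from 0.997 to 1.000. The arrays form groups that differ in genotype, so r here mostly reflects the separation of those groups, and 877 genes had an r above 0.95 with Cdkn1a and 608 with Cdkn1c. Cgref1 differed by 2.49 and Cdc42ep4 by -1.34.

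The summed level of some cell type marker lists differed between the groups, and that of others overlapped. Members changed in both directions, so a shared direction alone does not tie a list to them. The summed level of fibre markers, as log2 of scaled signals, was 9.94 to 10.15 in knock-in and 10.34 to 11.76 in wild type lenses, with 9 of 14 lower, in the direction of Cdkn1c and Cdkn2c, where 12.6% of all genes were lower. The count was 5 without knock-in array 2, wild type array 1 or wild type array 2, and 4 with the slide block. Epithelial markers overlapped at 6.47 to 6.66 in knock-in and 6.58 to 6.81 in wild type lenses. Of 13, 1 was higher and 4 lower, beside 13.3% higher and 12.6% lower over all genes. Fibroblast markers were at 2.92 to 4.07 in knock-in and 1.42 to 1.84 in wild type lenses, with 2 of 3 tested higher, among them their defining gene Col1a1 (5.06, SE 0.46, limma adjusted p = 0.000620), in the direction of Cdkn1a. Pdgfra differed by -0.07 and did not pass (adjusted p = 0.815), and Col3a1, Lum and Dcn were too dim to be tested. The count of higher fibroblast markers was 1 without knock-in array 1 or 2 and with the slide block. Smooth muscle markers were at 4.68 to 5.61 in knock-in and 6.52 to 7.31 in wild type lenses, with 1 higher and 2 lower of 3 tested. Photoreceptor markers were at 0.36 to 4.67 in knock-in and -1.83 to -1.17 in wild type lenses, with 1 of 2 tested higher and the top value on knock-in array 4. The tested photoreceptor genes passed the filter on dim probes through the knock-in arrays alone. Corneal epithelial markers were at 0.71 to 1.00 in knock-in and 0.04 to 0.28 in wild type lenses, with none of 2 passing. Leukocyte (2 higher and 1 lower of 9), pigment cell (none of 4) and endothelial markers (none of 3) overlapped between the groups. The higher leukocyte genes, Tyrobp and C1qc, passed the filter on dim probes through the knock-in arrays alone. With probes above background on all arrays, 0 leukocyte genes were higher and 1 lower of 6, and with the slide block none passed. The defining genes Tyr (pigment cells) and Pecam1 (endothelium) were well above background on all 6 arrays, and Ptprc of leukocytes on 1 knock-in and 2 wild type arrays. The part of these cells in the results was not tested.

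**Figure D4:**
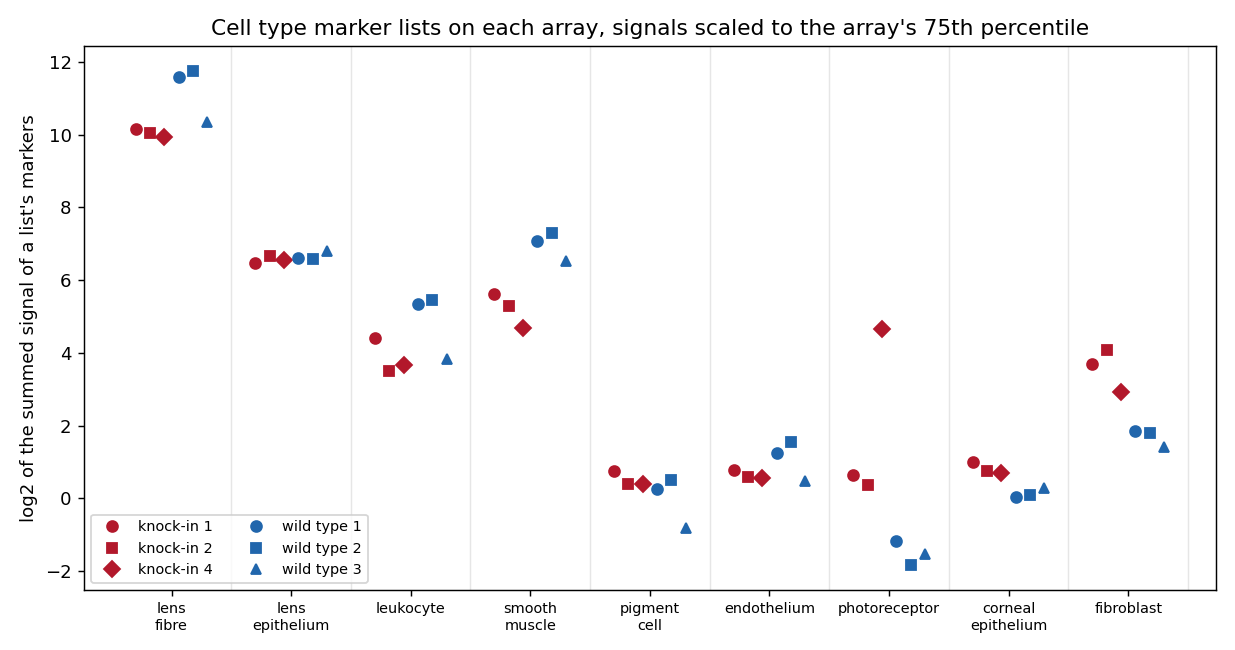
Log2 of the summed scaled signal of the markers of 9 cell types (x axis) on each array, knock-in in red left of wild type in blue. Fibre and smooth muscle markers are lower on all knock-in arrays, fibroblast, photoreceptor and corneal markers higher, and knock-in array 4 stands apart for photoreceptor markers at 4.67.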

How the data were processed

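Cy3-labelled lens RNA was read on Agilent arrays of 1 colour, per the labels. The deposited values are intensities. The processed signal had its background subtracted within the array, and the headers name version 11.0.1.1 of the scanner software (the submitters' processing notes name 9.1). Spot and background medians were deposited beside it. The arrays' design build is mm9 per the file headers.

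Members and lists were chosen with earlier results of these data known. From each log2 signal the array's 75th percentile over 43020 non-control spots was subtracted; spots with outlier flags were removed and replicate spots averaged per probe. A probe was well above background if at least 50% of its spots were, and 21073 of 39429 probes met this on every array of at least 1 group and were tested. Names came through RefSeq accessions (27234 probes named). The brightest probe represented each of 12783 genes, fitted with limma 3.58.1 in R 4.3.3 (4 residual degrees of freedom). On simulated data for 12781 genes, with independent noise and 200 genes changed, 34% of 2-fold and 76% of 4-fold changes were recovered, with 11 false calls among 121. In the data 25.9% of genes were called and arrays of an inferred slide were alike, so these rates may not hold for this comparison.

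Named were all members, up to 3 rises and 3 falls with the smallest p per list, the 5 genes most correlated with Cdkn1a and Cdkn1c, and each marker list's first gene; some of these are not reported here. Alternatives covered scaling, background, filters, flags, weights, the probe rule, blocks (slide correlation 0.56) and leaving out each array.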

Additional observations from a re-analysis of the deposited data

How the results depend on the processing

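The number of genes called, 3310 with all 6 arrays, was 1433 with normexp, 2002 without the filter on dim probes, 8747 with array weights, 620 with slide as a random block, 5564 with scan day as a block, and 1538 to 5661 on leaving out 1 array. Of probes, 4968 were called, against 1914, 2071, 15093, 669 and 9247 in the same settings, and 1943 to 9494 on leaving out 1 array. Most calls were lost without knock-in array 2 (1538 genes), wild type array 1 (1699) or wild type array 2 (1864), and most gained without wild type array 3 (5661). The change of Cdkn1a minus that of Cdkn1c was 4.27 with normexp, 4.04 with normexp and quantile normalization, 6.67 with the mean of a gene's probes, and 7.52 to 7.95 on leaving out 1 array. Against Cdkn1b it was 2.48, 2.31 and 5.06 in those settings, 5.79 with quantile normalization, and 5.97 to 6.18 on leaving out 1 array. Both normexp settings added 50 units to every signal. The cause of these shifts was not tested. Cdkn1b changed sign to 0.0816 with normexp and quantile normalization, 0.0549 with array weights, 0.0869 with scan day as a block or without wild type array 3, and 0.0036 with the replicate block, ran from -0.198 to 0.0869 on leaving out 1 array, and passed in none of its 20 settings. Cdkn1c kept its call in all 20 and Cdkn1a in all 19 that could be run, since it drops out when a probe must be above background on all arrays. Cdkn2a and Cdkn2b each passed in 4 of 20 settings: array weights, the scan day block, the replicate block and leaving out wild type array 3. That array is alone in its scan day and its replicate number, so neither block uses it in the difference. These settings are therefore not separate support. Replicate numbers 1 and 2 occur in both groups, and deviations of same-numbered arrays from their group means gave r of 0.17 and -0.22 over genes. Arrays with unlike numbers gave similar values, 0.22 for knock-in array 1 with wild type array 2 and -0.18 for knock-in array 2 with wild type array 1. This check therefore cannot tell whether the numbers carry a pairing. With the replicate block 5446 genes and 9385 probes were called. The number of arrays limits precision, and the wild type level of Cdkn1a is known only as a bound.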
